A study of Mus musculus with 8 samples.

Results

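The genes described are the E2 ubiquitin-conjugating enzymes, taken as every probe whose gene symbol on the array begins with Ube2. The rule found 45 probes with 30 symbols, of 18138 symbols on the array, and it used no measured value. RNA was profiled on Illumina mouse BeadChips in primary mouse aortic smooth muscle cells (mAoSMC), with 3 samples transfected with a scrambled control oligonucleotide and 3 with a moR-21 mimetic. Both oligonucleotides were used at 5 nM for 48 h. A pair of repeat arrays, A and B, existed for control sample 1 and for moR-21 sample 3, and their values were averaged. The cells were grown out of pieces of several mouse aortas, and the age and sex of the mice are not given for these cultures in the sources used here, where the study's methods name wild type C57/Bl6 mice in general. Every sample carried the RNAiMAX transfection reagent, so both sides of the comparison were transfected and no untransfected cells entered it. The study's methods name charcoal-treated serum for these cells before experimental use.

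Ubiquitin is attached to proteins by a relay of enzymes. An E1 enzyme activates ubiquitin, an E2 enzyme takes it over on a cysteine, and an E3 ligase brings the loaded E2 to the substrate. The E2 has a large part in setting which chain is built, and some E2s carry a ubiquitin-like protein such as SUMO, NEDD8 or ISG15 in place of ubiquitin. In smooth muscle, as in other cells, ubiquitin marks cyclins, receptors and misfolded proteins for degradation.

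moR-21 is a microRNA-offset RNA, a small RNA that comes from the precursor of miR-21 next to the mature microRNA. The RefSeq sequences of the region are shown because the treatment is a copy of an RNA from this place and not of miR-21 itself. On GRCm38.p6, minus strand, the hairpin stretch that precedes the mature microRNA lies at chr11:86584142-86584158 and miR-21a-5p at chr11:86584120-86584141. Capitals in the upper line mark the bases common to the first 3 of the potential seed windows that the study considered for moR-21, and capitals in the lower line mark the miR-21a-5p seed. The exact ends of the mimetic are not shown.
hairpin stretch before miR-21a-5p: uGUACCaccuugucgga
miR-21a-5p: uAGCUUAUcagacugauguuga

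Of the 30 E2 symbols, 24 had a probe that stood above background on at least 1 array (detection p under 0.01) and were tested, each at its brightest such probe. The other 6, Ube2c, Ube2d1, Ube2dnl, Ube2u, Ube2v2 and Ube2z, were not detected on any array, and nothing can be said of their response. Of the 24, 19 were detected on all 8 arrays, while Ube2g2 was detected on 7 and Ube2r2 and Ube2s on 3. Ube2j1 was detected on the 4 control arrays and on 0 moR-21 arrays, and Ube2t on 0 control arrays and 1 moR-21 array, so each of them was tested through the treatment in which it was brighter. All values below are log2 normalized intensities, and each fold change is the moR-21 mean minus the control mean on that scale.

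2 E2 genes were lower after moR-21 and 0 were higher at the cutoffs the study used, a fold change over 1.3 and a limma adjusted p under 0.002. They were Ube2e1, an E2 that works with many RING and HECT ligases, and Ube2q1, an E2 with a long N-terminal extension. These are 8.33% of the 24 tested E2 genes, where 4.38% of all 8727 tested genes were called lower and 3.41% were called higher. By probe, 2 of the 30 E2 probes tested were called lower and 0 higher, where 3.85% of all 11651 tested probes were called lower and 3.12% higher. At an adjusted p under 0.05 with no fold cutoff, 7 E2 genes were lower (29.2%) and 1 was higher (4.17%), where all genes gave 17.3% and 18.8%. The 7 were Ube2q1, Ube2e1, Ube2d2, Ube2e2, Ube2l6, Ube2j1 and Ube2g2, the 1 was Ube2g1, and the remaining 16 passed in neither direction. Ube2j1 entered this count through its control arrays alone. With detection required on all 8 arrays, 19 E2 genes were tested and 6 were lower at this level, with Ube2q2 in the list and without Ube2j1 and Ube2g2. The share of all genes under this stricter filter was not computed, so the 6 have no like share beside them. At an unadjusted p under 0.05 the limma fit had 8 E2 genes lower (33.3%) and 3 higher (12.5%), where all genes gave 21.1% and 23.4%.

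The 3 moR-21 samples lay entirely below the 3 control samples in 9 E2 genes (37.5%) and entirely above them in 4 (16.7%), and groups that did not overlap in either direction made up 46.3% of all tested genes. Ube2j1 is among the 9 and Ube2t among the 4, and each was above background in 1 treatment only. The median log2 fold change of the 24 E2 genes was −0.05, against 0.01 over all genes. Of the E2 genes 16 had a negative and 8 a positive value. Their spread was similar to that of all genes, with a standard deviation of 0.18 against 0.22.

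**Figure D1:**
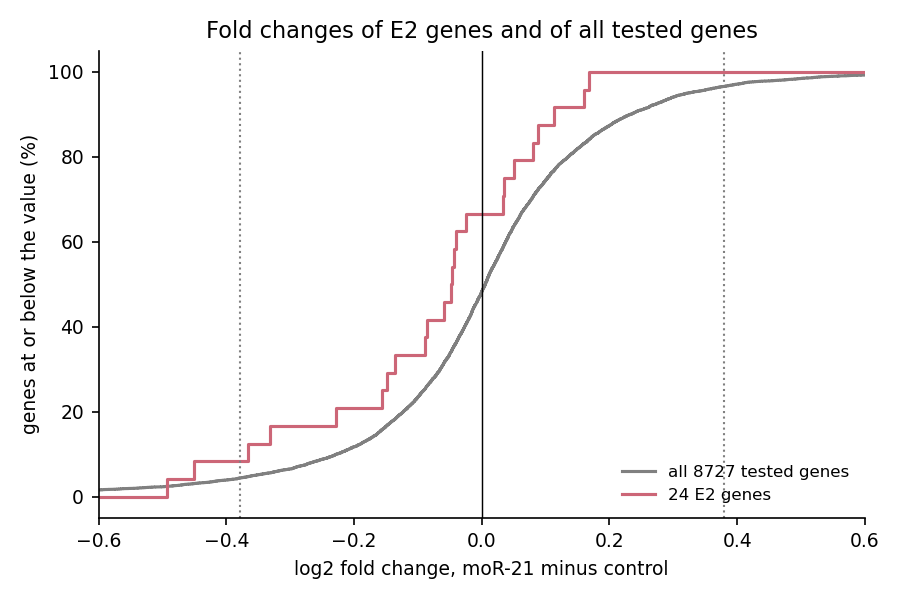
Share of genes (y axis, %) at or below each log2 fold change (x axis, moR-21 minus control) for the 24 tested E2 genes in red and all 8727 tested genes in grey, with 1.3-fold marked by dotted lines. The E2 line lies to the left of the grey line around 0, and it passes the lower dotted line with 2 genes and the upper one with 0.

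The labelled cell type was checked against marker genes. Of 10 smooth muscle markers 6 were detected, of which Acta2 was called higher after moR-21 (0.40 on the log2 scale, limma adjusted p = 2.14e-05), and Myh11, Cnn1, Actg2 and Synpo2 were not detected. The other detected smooth muscle markers did not move together, with Des at −0.38 (limma adjusted p = 8.6e-05), Mylk at 0.245 (limma adjusted p = 0.00199) and Smtn at −0.05. Tagln, at 0.20, was detected on only 4 arrays and Lmod1, at 0.05, on only 3. Both were near background and higher in the moR-21 samples. They may have entered the test through that treatment, so their values are not read as changes. Of 10 endothelial markers 1 was detected (Vwf), while 1 label of each sample names endothelial cells and the others name smooth muscle cells. The summed normalized intensity of the smooth muscle markers was 10500 to 10900 in control and 13300 to 14100 in moR-21 treated cells, a sum that Acta2 dominates. The mesothelial markers, of which 2 of 6 were detected, summed to 1160 to 1180 and 788 to 803, and the macrophage markers, 3 of 8 detected, to 2130 to 2200 and 1970 to 2010. Of the mesothelial markers Upk3b was at −1.24, called lower (limma adjusted p = 2.51e-10), and Krt19 at −0.13 (limma adjusted p = 0.115). Of the macrophage markers Cd14 was at −0.27 (limma adjusted p = 0.000338), Csf1r at −0.01 and Lyz2 at 0.48, called higher (limma adjusted p = 1.79e-06). The endothelial sum was 1010 to 1030 and 1030 to 1040. Each of the sums includes the probes of markers that were not detected, so the endothelial sum is mostly background. The part of these shifts in the E2 results was not tested, and in bulk RNA fewer cells of a type cannot be told apart from less RNA per cell.

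The first role group holds the UBE2D and UBE2E enzymes, which serve a wide range of RING and HECT ligases, and UBE2L3, which serves HECT and RBR ligases. Of its 6 tested genes 1 was called lower, 3 passed an adjusted p under 0.05, all of them lower, and the median log2 fold change was −0.21. Of all tested genes 4.38% were called lower and 17.3% passed an adjusted p under 0.05 in the lower direction, and these shares apply to each role group below. The role groups are small and were set with earlier results known, so their counts are a description.

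Ube2e1 encodes an enzyme with a typical catalytic core behind a short N-terminal arm. In mouse it lies at chr14:18282726-18332004 on GRCm38.p6. Its control samples measured 7.52, 7.60 and 7.57, and its moR-21 samples 7.14, 7.08 and 7.12. The samples of a group lay close together (SD 0.04 in control and 0.03 in moR-21 treated cells), and all moR-21 samples were below the lowest control sample. The log2 fold change was −0.45 (standard error 0.0457, limma adjusted p = 4.38e-06), a 1.37-fold fall. The probe was not bright, at raw intensities of 182 to 198 in control and 132 to 144 in moR-21 treated cells, where the median probe of an array read 102 to 109. With background correction by normexp the log2 fold change was −0.94 (limma adjusted p = 5.33e-05), and Ube2e1 was still called.

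Ube2e2, a close relative of Ube2e1 on the same chromosome (chr14:18573563-18894284), was also lower, at a bright probe. The control samples read 10.68, 10.65 and 10.67, and the moR-21 samples 10.30, 10.33 and 10.36. The groups did not overlap, with an SD of 0.02 in control and 0.03 in moR-21 treated cells. The log2 fold change was −0.33 (standard error 0.0445, limma adjusted p = 5.62e-05). At 1.26-fold it fell short of the fold cutoff, so it was past the test and not called.

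Ube2d2, now Ube2d2a, encodes a highly conserved E2 that most in vitro ligase assays use. Control samples were at 9.90, 9.84 and 9.91 and moR-21 samples at 9.57, 9.50 and 9.47. Every moR-21 sample was lower than every control sample. The log2 fold change was −0.37 (standard error 0.0472, limma adjusted p = 4.04e-05), or 1.29-fold, just under the 1.3-fold cutoff, and no other uncalled E2 gene was nearer to it. Ube2d2 was called with median scaling (−0.38), with cyclic loess (−0.38), with array A alone (−0.40), without control sample 2 (−0.39) and without moR-21 sample 1 (−0.39).

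The other members of this group did not pass. Ube2e3 had 8.52, 8.39 and 8.47 in control and 8.56, 8.63 and 8.43 in moR-21 treated cells, with moR-21 sample 3 inside the control range, and its log2 fold change was 0.08 (95% confidence interval −0.04 to 0.20). Ube2d3 had a value of −0.09 (limma adjusted p = 0.178), although its groups did not overlap. Its probe was dim, at raw intensities of 126 to 154 in control and 126 to 134 in moR-21 treated cells. With normexp its value was −0.225, so the size of its change is uncertain. Ube2l3, the E2 of HECT and RBR ligases such as parkin, had values of −0.05 at the brighter and 0.03 at the dimmer of its tested probes, with overlapping groups at both.

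**Figure D2:**
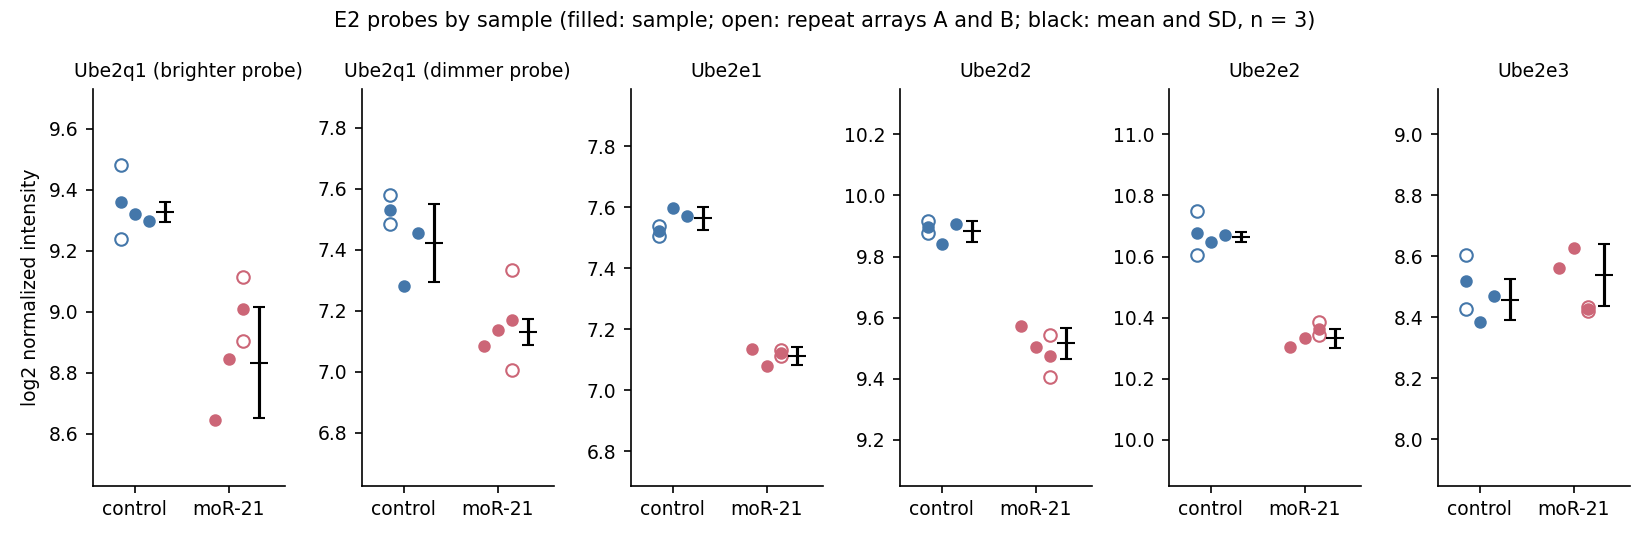
log2 normalized intensity (y axis) of 6 E2 probes in 3 control (blue) and 3 moR-21 (red) samples, with open circles for the repeat arrays A and B of control sample 1 and moR-21 sample 3 and black bars for mean and SD. All panels span the same log2 range. The groups are apart for Ube2q1 at both probes and for Ube2e1, Ube2d2 and Ube2e2, and overlap for Ube2e3.

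Ube2q1 (chr3:89773609-89783997), of the group of other E2s, had the largest fold change among the E2 genes without background correction. At its brighter probe, ILMN_1259048, control samples had 9.36, 9.32 and 9.30 and moR-21 samples 8.65, 8.85 and 9.01. The moR-21 samples were all lower, but they were spread widely, with an SD of 0.18 against 0.03 in control. The log2 fold change was −0.49 (standard error 0.072, limma adjusted p = 0.000117), a 1.41-fold fall. The call at this probe was lost with normexp (−0.58, limma adjusted p = 0.00405) and with array B alone of the repeated samples (−0.42, limma adjusted p = 0.00257).

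The repeat arrays of Ube2q1 lay apart. Control sample 1 measured 9.48 on array A and 9.24 on array B, a difference of 0.24 and the largest among the 24 E2 genes in that sample, whose median difference was 0.07. moR-21 sample 3 measured 8.91 on array A and 9.11 on array B. Array B thus brought both samples nearer to each other, but the lowest control array was still above the highest moR-21 array.

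A second Ube2q1 probe, ILMN_1247833, was dimmer and also lower. Its control samples were 7.53, 7.28 and 7.46 and its moR-21 samples 7.09, 7.14 and 7.17. The groups did not overlap, and here the control samples had the wider spread, with an SD of 0.13 against 0.04. The log2 fold change was −0.29 (standard error 0.0603, limma adjusted p = 0.00181), or 1.22-fold, so this probe was past the adjusted p and under the fold cutoff. Over the mean of both probes Ube2q1 was still called, at −0.39 (limma adjusted p = 0.00032).

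Ube2q2, the paralogue of Ube2q1, had 7.48, 7.47 and 7.46 in control and 7.30, 7.22 and 7.43 in moR-21 treated cells. Its groups were apart, moR-21 sample 3 only narrowly, and its log2 fold change of −0.15 had a limma adjusted p of 0.0502. Without moR-21 sample 3 it was −0.20 (limma adjusted p = 0.0109). Ube2o, a large E2 that also acts as a ligase, had −0.09 with overlapping groups.

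In the group of E2s for ubiquitin-like modifiers, 0 of 4 tested genes were called and the median was −0.01. Ube2l6, which conjugates the interferon-induced ISG15, was the lowest. Its samples were 7.91, 7.98 and 7.93 in control and 7.70, 7.79 and 7.64 in moR-21 treated cells. The groups did not overlap, and the log2 fold change was −0.23 (standard error 0.0507, limma adjusted p = 0.00297). For NEDD8, Ube2m had −0.06 and Ube2f 0.04, and the 2 dimmer probes of Ube2f had −0.11 and 0.12, of opposite sign.

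The E2s of ER-associated degradation, which clear misfolded proteins from the endoplasmic reticulum, had 0 of 3 genes called, and the 2 that passed an adjusted p under 0.05, both lower, were not tested in the fit that required detection on all 8 arrays. Ube2j1, a membrane-anchored E2, had 6.86, 6.95 and 6.94 in control and 6.72, 6.78 and 6.77 in moR-21 treated cells. All moR-21 samples were lower, but none of them was above background, so only a bound can be given. Set against the lowest detected signal of each moR-21 array, Ube2j1 was at least 1.06-fold lower. The fit of the measured values gave −0.16. Its p-value is not used as support, since Ube2j1 entered the test through the control arrays alone. Ube2g2, which works with the ligase gp78, had −0.14 (limma adjusted p = 0.0422), again with no overlap, and Ube2j2 had −0.05.

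The probes of Ube2j1 and Ube2g2 were at the edge of detection. Ube2j1 had raw intensities of 116 to 121 in control and 107 to 110 in moR-21 treated cells, and Ube2g2 had 124 to 131 and 112 to 117. With normexp the log2 fold changes became −0.55 for Ube2j1, whose moR-21 values are background, and −0.44 for Ube2g2. The sizes thus moved with the correction and the sign did not. The correction keeps the order of the probes on an array, so a change of sign was unlikely where groups did not overlap. Leaving out control sample 2, control sample 3 or moR-21 sample 1 put Ube2j1 above an adjusted p of 0.05. Ube2g2 stayed under 0.05 only without moR-21 sample 2 (limma adjusted p = 0.0434), and without each of the other 5 samples its limma adjusted p was 0.0607 to 0.151 and its log2 fold change −0.15 to −0.10.

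**Figure D3:**
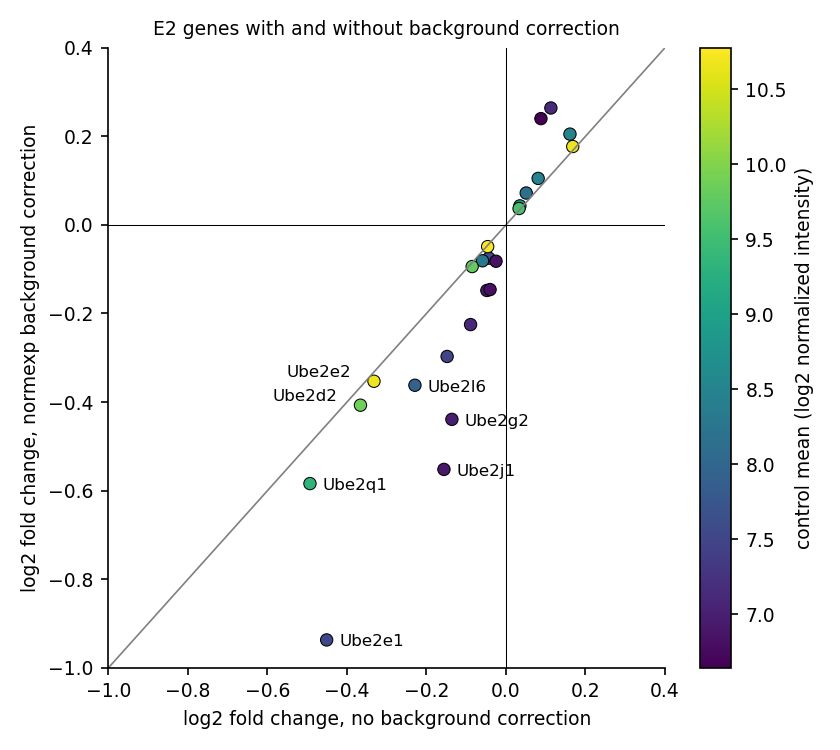
log2 fold change of the 24 tested E2 genes without background correction (x axis) and with normexp correction (y axis), coloured by the control mean. Bright probes lie near the grey line of equal values, and dim probes lie farther from 0 after correction (Ube2e1 at −0.94, Ube2j1 at −0.55, Ube2g2 at −0.44). Ube2j1 was above background in control only. No gene changes sign, which was unlikely where the groups do not overlap.

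The chain-extending and cell-cycle E2s had 0 of 4 tested genes called, and Ube2c, the partner of the anaphase-promoting complex that starts chains on cyclins, was not detected. Ube2g1, which builds K48 chains for cullin-RING ligases, was the only E2 gene past an adjusted p under 0.05 in the higher direction. Its samples were 8.49, 8.50 and 8.46 in control and 8.64, 8.74 and 8.55 in moR-21 treated cells. The groups did not overlap, and the log2 fold change was 0.16 (standard error 0.0527, limma adjusted p = 0.0299).

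The pass of Ube2g1 depended on the probe and on single samples. Its other 2 probes had 0.12 (limma adjusted p = 0.145) and 0.09 (limma adjusted p = 0.149), of the same sign and not past the test. Without control sample 1 its value was 0.11 (limma adjusted p = 0.305) and without control sample 2 it was 0.09 (limma adjusted p = 0.385), and in both fits another of its probes was the brightest. Without control sample 3 and without moR-21 sample 1 the same probe gave 0.15 and 0.16, with limma adjusted p-values of 0.0786 and 0.0603. Without moR-21 sample 2 the value was 0.145 (limma adjusted p = 0.141), at another probe. Ube2s and Ube2r2, detected on only 3 arrays each, had −0.02 and −0.04, and Ube2k had 0.03.

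Among the DNA damage and histone E2s 0 of 3 were called. Ube2b, one of the mammalian RAD6 enzymes that ubiquitinate PCNA and histone H2B, had 10.63, 10.57 and 10.81 in control and 10.93, 10.83 and 10.75 in moR-21 treated cells. Control sample 3 lay above moR-21 sample 3, so the groups overlapped, and the log2 fold change of 0.17 had a limma adjusted p of 0.0636. Without control sample 3 it was 0.24 (limma adjusted p = 0.0079), and without moR-21 sample 3 it was 0.21 (limma adjusted p = 0.039). Ube2a, the other RAD6 enzyme, had −0.04, and Ube2t, the Fanconi anaemia E2, was above background on 1 moR-21 array alone, so no fold is given. Ube2n, which makes K63 chains with a UEV partner, had 0.05, and its partner Ube2v2 was not detected.

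**Figure D4:**
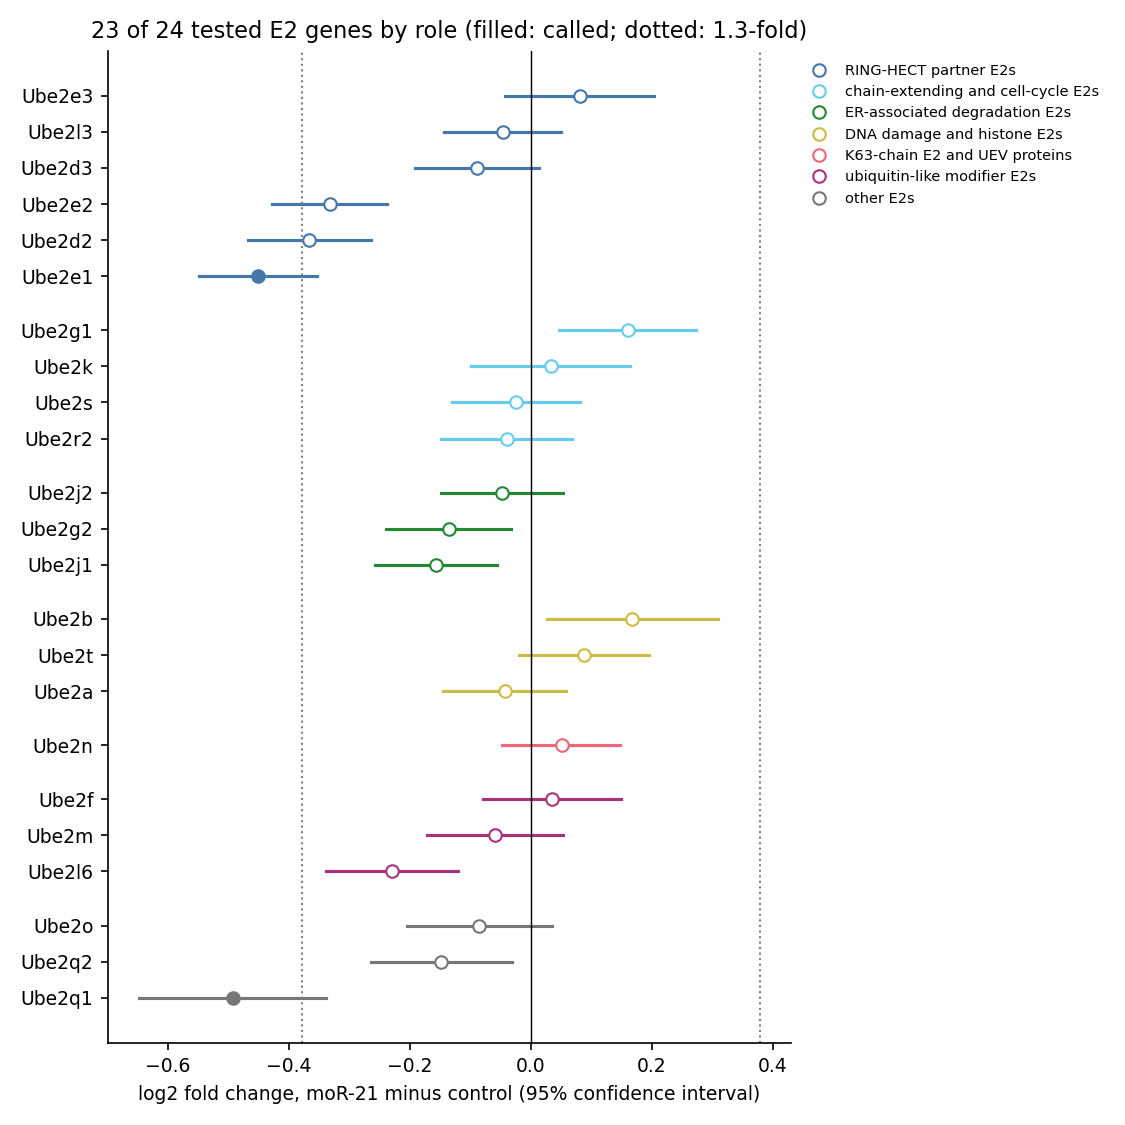
log2 fold change (x axis) with 95% confidence intervals for 23 of the 24 tested E2 genes, grouped and coloured by role, with filled points for called genes and dotted lines at 1.3-fold. Ube2j1 and Ube2t were above background in 1 treatment only. Ube2e1 and Ube2q1 are filled and lie to the left of the lower dotted line, with Ube2d2 and Ube2e2 next to it.

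To compare the responses of relatives within the family, the difference between the log2 values of 9 pairs of paralogues was taken within each sample and then compared between treatments, which gives the difference of their log2 fold changes. The pairs were chosen with the values known, and an exact permutation test of 3 samples against 3 cannot go below 0.1, so the differences are a description. Ube2e1 minus Ube2e3 was −0.53 (standard error 0.092), and −1.04 with normexp. Ube2e2 minus Ube2e3 was −0.41 (standard error 0.078), and −0.46 with normexp. Ube2e1 minus Ube2e2, both lower, was −0.12 (standard error 0.041) and −0.58 with normexp, so the size of this difference depended on the correction of the dim Ube2e1 probe. Ube2q1 minus Ube2q2 was −0.345 (standard error 0.088) and −0.29 with normexp. Ube2d2 minus Ube2d3 was −0.28 (standard error 0.031) and −0.18 with normexp. Ube2g1 minus Ube2g2, of opposite signs, was 0.30 (standard error 0.065) and 0.64 with normexp. Ube2l3 minus Ube2l6 was 0.18 (standard error 0.058) and 0.31 with normexp, and Ube2a minus Ube2b was −0.21 (standard error 0.105) and −0.25 with normexp. For Ube2j1 and Ube2j2 no difference is given, since Ube2j1 has only a bound in moR-21 treated cells. The order of the pairs by size therefore changed with background correction.

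Around the E2s, the other steps of the relay were read from lists of E1, modifier and E3 genes. Over all tested genes 4.38% were called lower and 3.41% higher, and 17.3% and 18.8% passed an adjusted p under 0.05 in these directions. The lists are short, so their counts are a description and not a result about a list. The ubiquitin E1 and its relatives had 0 of 8 tested genes called, and 3 passed an adjusted p under 0.05, all lower. Uba1, the main ubiquitin-activating enzyme, had the largest change, at −0.25 on the log2 scale (limma adjusted p = 0.00197). Of 9 modifier genes 0 were called, and Sumo2 had the largest value, 0.36 (limma adjusted p = 0.000298), while 4 passed an adjusted p under 0.05 higher and 1 lower. Of 6 E2 enzymes with names other than Ube2, 1 was called higher, the autophagy E2 Atg10. Its samples were 8.52, 8.44 and 8.53 in control and 9.11, 9.06 and 8.99 in moR-21 treated cells, with no overlap between treatments. The fold change on the log2 scale was 0.56 (limma adjusted p = 1.29e-06). At an adjusted p under 0.05 this list had 1 gene higher, Atg10, and 1 lower, Ufc1. Ufc1 was at −0.34 (limma adjusted p = 2e-04), with groups that did not overlap, and was under the fold cutoff.

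The calls in the E3 lists stand beside 4.38% of all tested genes called lower and 3.41% called higher. Of 24 subunits of cullin-RING ligases and of the anaphase-promoting complex, 2 were called higher and 0 lower. They were Anapc4, a scaffold subunit of that complex, at 0.75 (limma adjusted p = 1.06e-07), and Rbx1, the RING subunit that recruits the E2 to cullins, at 0.42 (limma adjusted p = 2.31e-05). Of 23 HECT and RBR ligases, which take ubiquitin from E2s such as Ube2l3, 2 were called lower and 0 higher, Arih2 at −0.48 (limma adjusted p = 1.14e-05) and Wwp2 at −0.41 (limma adjusted p = 6.99e-05). Of 13 ligases of ER-associated degradation and DNA damage, 2 were called lower and 0 higher, Mgrn1 at −1.08 (limma adjusted p = 2.14e-09) and Syvn1, the ligase HRD1 that partners Ube2j1, at −0.38 (limma adjusted p = 7.08e-05). Mgrn1 was among the genes the study chose from these samples and is not independent evidence of a direction. At an adjusted p under 0.05 the list of cullin-RING and anaphase-promoting complex subunits had 4 genes lower and 4 higher. The HECT and RBR ligases had 3 lower and 4 higher. The ligases of ER-associated degradation and DNA damage had 4 lower and 1 higher. All tested genes gave 17.3% lower and 18.8% higher at this level. The medians of the 6 lists ran from −0.11 for the last to 0.03 for the E1 enzymes, beside −0.05 for the E2 genes.

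**Figure D5:**
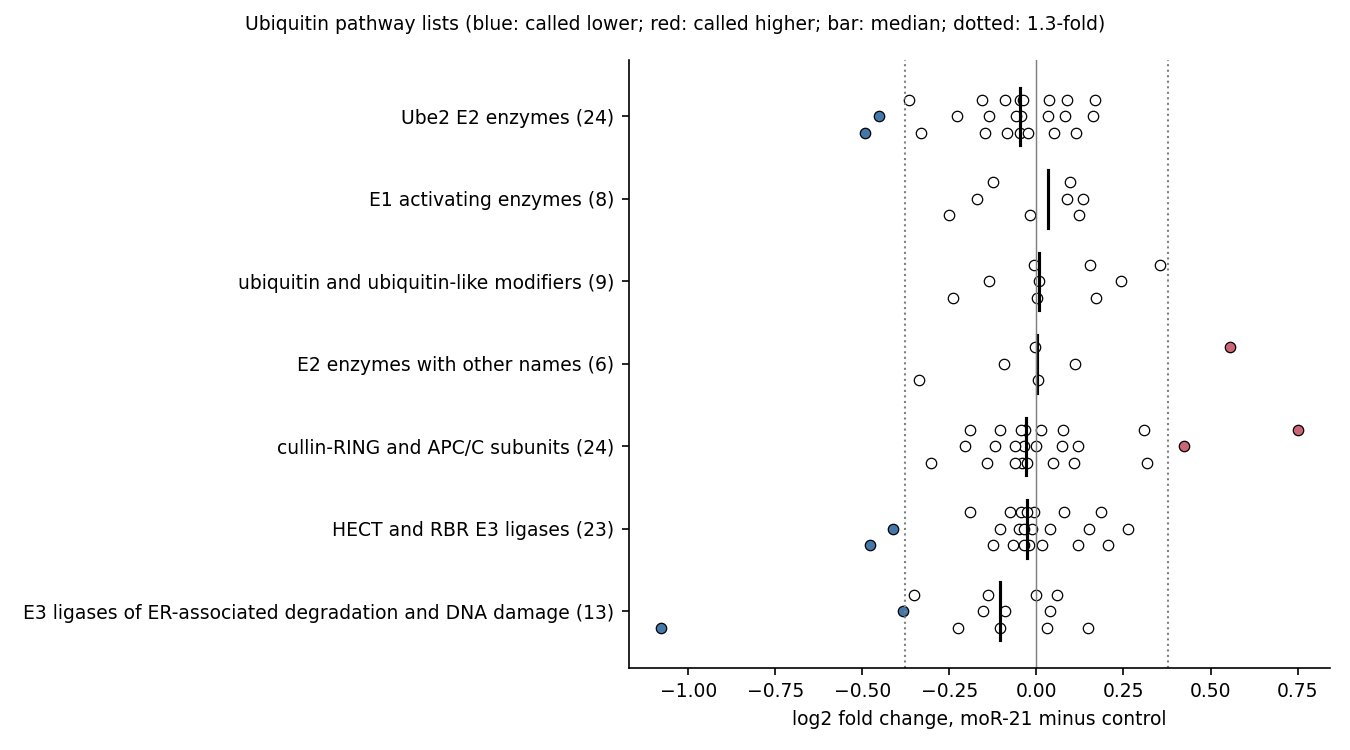
log2 fold change (x axis, moR-21 minus control) of each tested gene of the E2 family and 6 other ubiquitin pathway lists, with the number tested in brackets, called genes filled, medians as black bars and 1.3-fold as dotted lines. The vertical offset within a list has no meaning. The 2 called E2 genes are both lower, and of the other called genes 3 are higher and 4 are lower.

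Across the 19 alternative settings, Ube2e1 was called in 19, Ube2q1 in 17, Ube2d2 in 6 and Ube2e2 in 1. The settings with an adjusted p under 0.05 and with no fold cutoff are the main fit at a looser cutoff. In them a called gene could not be lost and the adjusted p-values could not change. The 1 call of Ube2e2 came with no fold cutoff. Ube2d2, Ube2e1, Ube2e2, Ube2l6 and Ube2q1 passed an adjusted p under 0.05 in the lower direction in all 19, and no other E2 gene did so. Leaving out 1 sample at a time gave 5 to 7 E2 genes lower and 0 to 2 higher at that level. Ube2g2, Ube2j1, Ube2g1, Ube2b and Ube2q2 were the genes that came and went. The share of all genes at that level was not computed for the alternative fits, so these counts have no like share beside them.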

How the data were processed

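Expression of 25697 probes was measured on Illumina MouseRef-8 BeadChips (the design text's name, where the paper's methods name another Illumina mouse design beside it) in 6 samples on 8 arrays. The authors deposited non-normalized probe intensities and, for each, a detection p-value. Both are used here as given. The submitters' processing notes name lumi, and background correction before deposit is not given in the sources used here. Samples were grouped by treatment as labelled. Nothing says that the 3 samples of a treatment came from separate cultures, so p-values measure only the spread between these samples. The number of arrays limits the precision, and the arrays had 10285 to 10512 probes with a detection p-value under 0.01.

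Quantile normalization was run over the 8 arrays on the intensities, log2 was taken, and repeat arrays were averaged within a sample. The treatments were compared with limma's lmFit and eBayes, without covariates, over 11651 probes detected at p under 0.01 on at least 1 array. P-values were adjusted over all of them by the Benjamini-Hochberg method, and the call used the study's cutoffs. The brightest detected probe stood for a gene. Values in full were given for E2 genes with a called probe, the 6 others with the largest changes and genes whose probes differ in call, and in each pathway list for called genes, or the largest change where none was called. Ube2e3, Ube2g2, Ube2q2 and the remaining E2 genes were added for completeness, as was Ufc1 of the E2 enzymes with other names. The pairs of paralogues, all tested Ube2 symbols that differ only in their last digit plus the RAD6 pair, were chosen after the values were seen. The members, role groups, pathway lists and marker lists were chosen with earlier results of these data known. Gene positions and sequences are from RefSeq (GRCm38.p6), in which 28 of the 30 symbols are current and 2 are synonyms. Probe positions were not used here. The values of 1 tested E2 gene are not reported here, and it remains in the counts and medians.

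Alternatives were normexp background correction (offset 16), scaling to the median, cyclic loess, a stricter or no detection filter, array A or B alone, duplicateCorrelation, eBayes with trend and robust, a replicate block, each sample left out, an adjusted p under 0.05, no fold cutoff, and the mean of a gene's probes. The fit was tested on simulated data. Software was R 4.3.3, limma 3.58.1 and Python 3.11.15 with scipy 1.17.1, statsmodels 0.14.6 and matplotlib 3.10.9.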

Additional observations from a re-analysis of the deposited data

How the results depend on the processing

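The 2 E2 genes called lower became 1 with normexp and 1 with array B alone, Ube2e1 in both cases, and 4 with no fold cutoff, which added Ube2d2 and Ube2e2. With each sample left out the number was 2 to 3, and 0 E2 genes were called higher in each of the 19 alternatives. The median log2 fold change of the E2 genes was −0.088 with normexp and −0.065 to −0.033 with each sample left out. The number of probes called was 811, and 1829 with no fold cutoff. A left-out sample gave 772 to 851. No E2 gene changed sign under normexp, median scaling or cyclic loess. These settings rescale the same intensities, so a change of sign was unlikely for a gene whose groups did not overlap. Ube2q1 was not called with normexp or array B alone, and the cause was not tested.

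Samples of equal number were not shown to be paired. The correlations of their deviations from the group means were 0.19, 0.04 and 0.06. With the number as a replicate block, 815 probes were called, 2 E2 genes lower (Ube2e1 and Ube2q1) and 0 higher, with a median of −0.05. Dim probes near background make the size of the change uncertain in Ube2j1, Ube2g2, Ube2e1 and Ube2d3, among others.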
